A study of Rattus norvegicus with 8 samples.

Results

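The genes described here are those of the antioxidant defence of the rat hypothalamus: peroxiredoxins, thioredoxins, glutathione peroxidases, superoxide dismutases, catalase, the enzymes that make and use glutathione, and the metallothioneins. They were chosen by gene name alone, from name stems for the families and 12 single names, with no threshold on a measured value. The choice gave 70 of the 30367 probes on the array, which carry 62 of its 26269 gene names. Of these 62 genes, 55 were well above background on all 8 arrays and entered the test, among 16574 genes tested in all. The other 7 did not meet the background criterion and were not tested: Gclm, Gpx5, Gpx6, Gsta2, Gstm3, Gstt4 and Gsto2.

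The samples were whole hypothalami of lactating Wistar dams on postpartum day 7, from 4 control dams and 4 dams exposed to TCDD, with no genetic change named for either group. TCDD, the best-studied dioxin, binds and activates the transcription factor AhR (aryl hydrocarbon receptor). How much was given, by which route and when is not stated by the labels, nor what the control dams received. Each dam's RNA was read on its own Agilent whole-genome rat array in a single colour, and the comparison asks whether hypothalamic transcripts differed between the exposed and the control mothers.

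Cells make superoxide and hydrogen peroxide in respiration and in the oxidation of many substrates. Superoxide dismutases turn superoxide into hydrogen peroxide, which catalase, the peroxiredoxins (recharged by thioredoxin) and the glutathione peroxidases (recharged by glutathione) then reduce. The transcription factor NRF2, encoded by Nfe2l2 and held down by KEAP1, drives many of these genes through antioxidant response elements, and the metal-sensing factor MTF1 drives metallothioneins through metal response elements. In liver, dioxin is known to act on several glutathione transferase genes through AhR and NRF2.

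Values are log2 signals relative to the 75th percentile of each array's spots, so 0 is the signal at that percentile and negative values lie below it. A difference is the TCDD mean minus the control mean on that scale, with its standard error (SE) from limma's moderated test and p-values adjusted by the Benjamini-Hochberg method over all 16574 genes. The 75th percentile itself ran from 756 to 1077 intensity units over the 8 arrays, 69.3% to 73.7% of spots were well above background, and arrays correlated at 0.986 to 0.991. Among 15 genes that mark the hypothalamus, 14 were well above background on all 8 arrays, and Otp was not tested. All 4 control arrays lay on 1 slide and all 4 TCDD arrays on another, so slide and exposure cannot be told apart. A dam's replicate number is also the position of its array on the slide, and the 75th percentile was lowest at position 1 in both groups, at 756 and 806.

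No antioxidant, glutathione or metallothionein gene passed an adjusted p of 0.05 in limma's test. Over the whole array 4 genes passed, which is 0.0241%, and the smallest adjusted p among the 55 members was 0.153, for Prdx1. None of the 55 members differed by more than 0.5 on the log2 scale. Few genes did elsewhere: 553 of all 16574 genes tested and 200 of the 11426 with a gene symbol. The median size of the difference, regardless of sign, was 0.07 on the log2 scale for the members and 0.07 for all genes. Replicates were as tight as elsewhere: the median standard deviation (SD) within a group was 0.11 for the members and 0.12 for all genes.

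Below the adjusted threshold, the members tilted down. The log2 difference was below 0 for 36 of 55 members, 65.5%, against 48.5% of all genes tested and 53.7% of those with a gene symbol. The median difference was -0.04 for the members, 0.00 for all genes and -0.01 for genes with a symbol. The number of members below 0 was 36 to 39 over 5 other ways of scaling or background correction. The share of all genes below 0 was higher there too, at 51.4% with the median of named probes to 57.1% with quantile normalization. With normexp background correction it was 55.2%, against 65.5% of members, so the gap between these shares depends on the scaling. When any 1 array was left out, 30 to 41 members were below 0. The size of the tilt moved with single dams in both directions. The median difference came to -0.07 when control replicate 1 was left out and to -0.08 when TCDD replicate 2 was, but to -0.02 without control replicate 4 or TCDD replicate 4 and to -0.01 without TCDD replicate 3. In that last fit 54.5% of members and 50.2% of all genes were below 0.

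At an unadjusted p under 0.05, Prdx1, Gpx8 and Keap1 were lower in TCDD dams, which is 5.45% of the members against 2.82% of all genes and 3.25% of genes with a symbol. On the other side stood Gsto1 alone, 1.82% of the members against 7.95% of all genes and 3.84% of genes with a symbol. Over all genes this made 468 lower and 1317 higher, and 738 lower and 1119 higher after quantile normalization. Leaving out control replicate 1 brought the lower count among members to 1, and leaving out control replicate 4 or TCDD replicate 2 brought it to 5. Over all genes the lower count in these fits was 317, 538 and 528. The higher count among members came to 3 without control replicate 4 and to 2 when TCDD replicate 3 was left out. Over all genes the higher count was 1484 and 978 there. No member in either count passed a correction for the number of genes tested.

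A second description asks whether the 4 TCDD values and the 4 control values overlap. All 4 TCDD dams lay below all 4 control dams for Prdx1, Keap1, Gclc and Cat, 7.27% of the members against 1.72% of all genes. They lay above all 4 controls for Gsto1, 1.82% of the members against 5.33% of all genes. Counted over probes rather than genes, 6 of 61 tested member probes did not overlap, beside 6.85% of all 19102 probes tested. Since these are whole tissue samples, fewer cells of a type and less RNA per cell cannot be told apart for any of these genes.

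**Figure D1:**
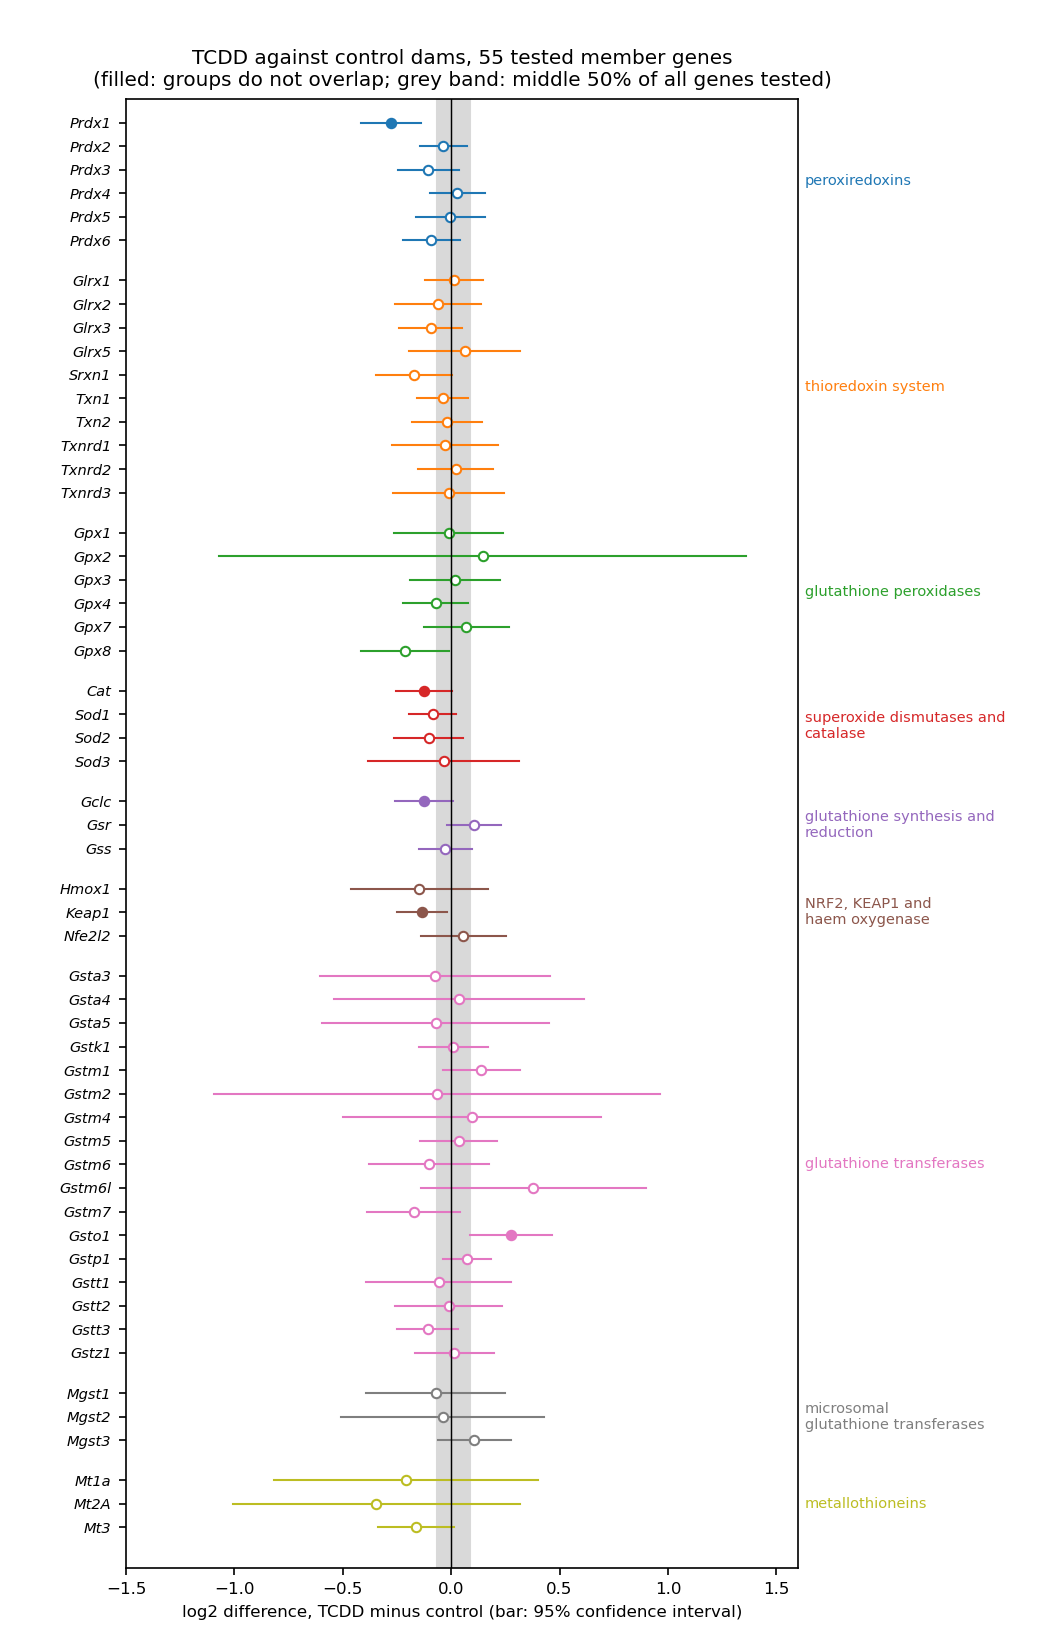
Log2 difference between 4 TCDD and 4 control dams (x axis) for the 55 tested genes, grouped and coloured by role, with 95% confidence intervals as bars. Filled points mark the 5 genes whose groups did not overlap, Prdx1, Keap1, Gclc and Cat to the left of 0 and Gsto1 to the right. Every point lies between -0.35 (Mt2A) and 0.38 (Gstm6l), and the widest interval is that of Gpx2.

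Among the peroxiredoxins, the abundant enzymes that remove hydrogen peroxide with thioredoxin as their electron source, 5 of 6 genes had a difference below 0 and 1 above, and 4 to 6 were below when any 1 array was left out. Prdx1, the cytosolic member and a known NRF2 target, stood apart from the other five. Its log2 signal was 2.34, 2.50, 2.37 and 2.44 in control replicates 1 to 4, and 2.03, 2.18, 2.18 and 2.15 in TCDD replicates 1 to 4. The groups did not overlap: TCDD replicate 1 was the lowest of all 8, and the other 3 TCDD dams lay close together below the lowest control. The difference was -0.28 ± 0.06 (SE, n = 4 and 4), a 1.21-fold lower signal, with a 95% confidence interval of -0.41 to -0.14 (limma, unadjusted p = 0.00152, adjusted p = 0.153). With any 1 array left out it stayed between -0.30 and -0.24.

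Prdx2, the neuronal and red cell member, gave 4.51, 4.57, 4.54 and 4.45 in controls and 4.51, 4.48, 4.51 and 4.44 in TCDD dams, a difference of -0.04 ± 0.05. Prdx6, which uses glutathione rather than thioredoxin, gave 1.99, 1.96, 2.05 and 2.03 against 1.90, 2.01, 1.95 and 1.81, a difference of -0.09 ± 0.06. With normexp background correction these differences came to -0.01 and -0.03. In both, the groups overlapped. Prdx3, Prdx4 and Prdx5, the mitochondrial, secretory-pathway and peroxisomal members, differed by -0.10 (Prdx3) to 0.03 (Prdx4).

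The Prdx1 value rests on 1 probe, spotted once, shown here because the largest peroxiredoxin difference rests on its 60 bases. It lies at chr5:136983425-136984996 on rat build rn4, per the file's design columns. That stretch covers 1572 bases for a 60-base probe, so its match to the genome is split, as a probe across an intron would be. The Cat probe is printed as well, since that member also had separate groups and its probe also covers a longer stretch, 1945 bases, at chr3:88683063-88685007 on the same build.
Prdx1 probe: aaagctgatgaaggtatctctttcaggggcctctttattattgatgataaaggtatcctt
Cat probe: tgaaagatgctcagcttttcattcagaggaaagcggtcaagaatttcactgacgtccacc

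Upstream of Prdx1, the 250 bases before its RefSeq start hold 1 match to the core of the antioxidant response element, TGACNNNGC, searched on both strands. The match lies on the reverse strand with its first base at position -135 from the start, and is in capitals. The sequence is chr5:135383656-135383905 on build GRCr8, forward strand, from RefSeq.
Prdx1 promoter: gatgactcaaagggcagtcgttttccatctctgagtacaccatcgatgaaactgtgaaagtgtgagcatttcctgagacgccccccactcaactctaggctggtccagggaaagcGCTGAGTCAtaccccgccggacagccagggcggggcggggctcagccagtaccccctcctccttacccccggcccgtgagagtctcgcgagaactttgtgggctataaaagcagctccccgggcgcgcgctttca

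RefSeq windows of 300 bases (250 before to 50 after the start) were at hand for 53 of the 62 members and for 27457 rat genes in all. The antioxidant response core was present in 16 members, 30.2%, and in 12.2% of all genes. The AhR core, GCGTG, was present in 25 members, 47.2%, and in 31.1% of all genes. At least 3 AhR cores occurred in 6 members, 11.3%, and in 3.74% of all genes. The 6 were Keap1, Gpx4, Gsta4, Mt2A, Prdx2 and Txn1. Gclc held 1 AhR core and Prdx1 held 0, the windows of Cat and Gsto1 held neither core, and Gpx8 had no window. The windows of all genes were not matched to those of the members by gene type or base composition, so these shares are not a like-for-like comparison. A match in such a window is a description of its letters and shows no binding.

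In the thioredoxin system, which recharges the peroxiredoxins, 7 of 10 genes were below 0 and 3 above, with 5 to 9 below when an array was left out, and none reached an unadjusted p of 0.05. Srxn1, sulfiredoxin, which repairs over-oxidised peroxiredoxins, had the largest difference of the group. It gave 0.86, 1.02, 0.73 and 0.86 in controls and 0.77, 0.61, 0.78 and 0.62 in TCDD dams. Control replicate 3 fell among the TCDD dams, so the groups overlapped, and the difference was -0.17 ± 0.08 (limma, unadjusted p = 0.0522, adjusted p = 0.473).

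Thioredoxin itself, Txn1, gave 3.64, 3.62, 3.53 and 3.55 against 3.60, 3.52, 3.58 and 3.48, a difference of -0.04 ± 0.05. Its reductase Txnrd1 gave -1.42, -1.42, -1.77 and -1.23 against -1.44, -1.49, -1.54 and -1.49, a difference of -0.03 ± 0.11. A second Txnrd1 probe gave 0.07, so its probes differ in sign. Glutaredoxin 1, Glrx1, gave 1.10, 0.99, 0.98 and 0.93 against 1.11, 0.95, 1.04 and 0.97, a difference of 0.01 ± 0.06. These sets of values overlap throughout. The mitochondrial partners Txn2, Txnrd2 and Glrx5 also lay close to 0, at -0.02, 0.02 and 0.06.

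The superoxide dismutases and catalase were all below 0, 4 of 4, under every scaling tried, and 3 of 4 in at least 1 fit that left out an array. Cat, the peroxisomal enzyme that splits hydrogen peroxide, gave -2.75, -2.78, -2.58 and -2.71 in controls and -2.85, -2.86, -2.80 and -2.82 in TCDD dams. The 4 TCDD dams sat just below the lowest control, with a narrower spread than the controls. The difference was -0.12 ± 0.06 (limma, unadjusted p = 0.0571, adjusted p = 0.481). Red blood cells are rich in catalase, and the mean of 5 tested red cell marker genes of 8 ran from 1.89 to 3.56 in controls and from 2.76 to 3.84 in TCDD dams, that is, higher in the TCDD group. Its part in the Cat values was not tested.

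Sod1, the cytosolic copper and zinc enzyme, gave 5.86, 5.86, 5.76 and 5.79 in controls and 5.71, 5.71, 5.76 and 5.75 in TCDD dams. Control replicate 3 and TCDD replicate 3 had nearly the same value and were the only point of contact between the groups. The difference was -0.09 ± 0.05, and -0.0089 with normexp background correction. Sod2, its mitochondrial counterpart, gave 1.48, 1.62, 1.58 and 1.50 against 1.39, 1.47, 1.32 and 1.59, a difference of -0.10 ± 0.07. There, TCDD replicate 4 lay among the controls. Sod3, the secreted enzyme, was at -0.03 ± 0.15.

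The glutathione peroxidases split evenly, 3 below 0 and 3 above among 6 tested. Leaving out 1 array gave 2 to 5 below 0: 5 without TCDD replicate 2, and 2 without control replicate 3, TCDD replicate 3 or TCDD replicate 4. Gpx8, a membrane enzyme of the endoplasmic reticulum, gave -0.95, -0.86, -0.79 and -1.02 in controls and -1.22, -0.90, -1.10 and -1.25 in TCDD dams. TCDD replicate 2 lay among the controls and the other 3 below them. The difference was -0.21 ± 0.09, a 1.16-fold lower signal (limma, unadjusted p = 0.0437, adjusted p = 0.444).

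Gpx4, the selenoenzyme that reduces lipid peroxides in membranes, gave 6.34, 6.42, 6.42 and 6.33 against 6.15, 6.39, 6.37 and 6.32, a difference of -0.07 ± 0.06 with a second probe at -0.06. Gpx1, the general cytosolic peroxidase, gave 2.29, 2.37, 2.38 and 2.31 against 2.12, 2.66, 2.29 and 2.25, a difference of -0.01 ± 0.11. For Gpx1 the TCDD dams spanned the controls on both sides, with TCDD replicate 2 the highest of all 8. No array had Gpx5 or Gpx6 well above background.

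**Figure D2:**
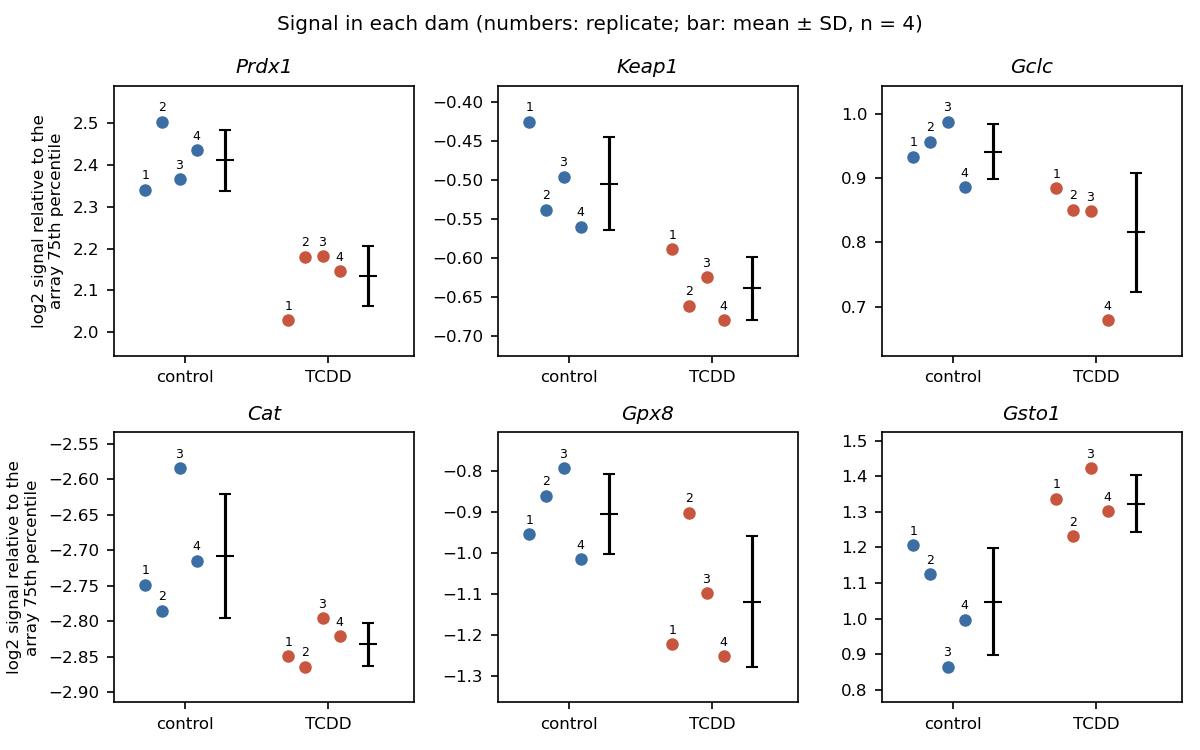
Log2 signal relative to the array's 75th percentile (y axis, its own range in each panel) in each of the 4 control and 4 TCDD dams, numbered by replicate, with mean ± SD (n = 4) beside the points, for Prdx1, Keap1, Gclc, Cat, Gpx8 and Gsto1. The groups separate in 5 panels; in Gpx8, TCDD replicate 2, at -0.90, lies among the controls.

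Glutathione is made by glutamate cysteine ligase and glutathione synthetase and kept reduced by glutathione reductase. Gclc, the catalytic subunit of the ligase and its rate-limiting part, gave 0.93, 0.96, 0.99 and 0.89 in controls and 0.88, 0.85, 0.85 and 0.68 in TCDD dams. The groups touched without overlapping, with control replicate 4 and TCDD replicate 1 nearly equal and TCDD replicate 4 well below the rest. The difference was -0.13 ± 0.06 (limma, unadjusted p = 0.0662, adjusted p = 0.502), and -0.08 without TCDD replicate 4.

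Gclm, the regulatory subunit, was well above background on none of the arrays, so its probe gives no difference. Gss, glutathione synthetase, gave -1.91, -1.94, -1.76 and -1.87 against -1.90, -1.93, -1.90 and -1.87, a difference of -0.03 ± 0.05. Gsr, glutathione reductase, gave -3.75, -3.76, -3.79 and -3.85 against -3.65, -3.70, -3.78 and -3.60. For Gsr, 3 of 4 TCDD dams were above every control, and the difference of 0.11 ± 0.05 had an adjusted p of 0.554 in limma's test. With normexp background correction the Gsr difference came to 0.0093.

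The NRF2 pathway entered with its sensor, its transcription factor and 1 standard target. Keap1, the sensor that marks NRF2 for degradation, gave -0.42, -0.54, -0.50 and -0.56 in controls and -0.59, -0.66, -0.62 and -0.68 in TCDD dams. The groups did not overlap, though control replicate 4 and TCDD replicate 1 were close. The difference was -0.13 ± 0.05, a 1.10-fold lower signal (limma, unadjusted p = 0.0285, adjusted p = 0.375).

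Nfe2l2 gave -0.28, -0.35, -0.25 and -0.09 against -0.33, 0.01, -0.20 and -0.22, a difference of 0.06 ± 0.09, and -0.01 without TCDD replicate 2. Hmox1, haem oxygenase 1 and a standard marker of NRF2 activity, gave -2.61, -2.44, -2.55 and -2.12 against -2.79, -2.46, -2.33 and -2.72. Its groups overlapped in part: TCDD replicates 1 and 4 lay below every control, and control replicate 4 lay above every TCDD dam. The difference was -0.15 ± 0.14, with an interval of -0.46 to 0.17. With 1 array left out it ran from -0.23, without TCDD replicate 3, to -0.04, without control replicate 4.

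The cytosolic glutathione transferases, which couple glutathione to foreign and endogenous electrophiles, fell on both sides of 0: 8 of 17 tested genes below and 9 above. With 1 array left out the count below 0 ran from 4, without control replicate 4, to 12, without TCDD replicate 2. By class, counts below and above 0 were 2 and 1 for alpha, 3 and 4 for mu, and 3 and 0 for theta. Kappa, omega, pi and zeta each had 1 tested gene, above 0 in each case. For kappa, the sign turned under several scalings, as Gstk1 lay at 0.01 ± 0.07.

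Gsto1, the omega class enzyme that reduces dehydroascorbate and mixed disulfides, had the only unadjusted p under 0.05 above 0 among the members. It gave 1.21, 1.12, 0.86 and 1.00 in controls and 1.34, 1.23, 1.42 and 1.30 in TCDD dams. All TCDD dams were above all controls, with control replicate 1 and TCDD replicate 2 closest. The difference was 0.28 ± 0.08, a 1.21-fold higher signal, with a 95% confidence interval of 0.09 to 0.47 (limma, unadjusted p = 0.00998, adjusted p = 0.275). Leaving out any 1 array kept it between 0.21 and 0.33. The probe is at chr1:253231589-253231648 on rn4. Gsto2, the neighbouring omega gene, was well above background on 1 TCDD array and no control array, and was not tested.

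The genes of the other classes whose probes had the highest signal within each class showed no separation of the groups. Gstm7 gave 3.06, 3.00, 3.06 and 3.28 against 2.90, 3.14, 2.91 and 2.77, a difference of -0.17 ± 0.09. Gstp1, the pi class enzyme, gave 2.83, 2.81, 2.75 and 2.77 against 2.91, 2.79, 2.88 and 2.87, a difference of 0.07 ± 0.05. Here 3 of 4 TCDD dams lay above every control.

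Gstz1, which also serves tyrosine breakdown, gave 1.35, 1.34, 1.48 and 1.58 against 1.41, 1.62, 1.38 and 1.40, a difference of 0.01 ± 0.08. Gstk1 gave 0.70, 0.68, 0.72 and 0.69 against 0.87, 0.75, 0.66 and 0.56, so the controls were tight and the TCDD dams spread to both sides. Gstt3, of the theta class, gave -0.44, -0.48, -0.50 and -0.36 against -0.56, -0.44, -0.66 and -0.54, a difference of -0.11 ± 0.06. A second Gstt3 probe gave -2.85, -2.82, -2.72 and -2.73 against -3.10, -2.91, -3.04 and -2.88, with all TCDD dams below all controls. Its difference was -0.20 ± 0.07 (limma over all probes, adjusted p = 0.344), so the 2 probes point the same way and differ in whether the groups separate.

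Gsta3, now named Gsta1 in RefSeq, gave 2.97, 2.76, 2.82 and 3.74 against 2.77, 3.26, 2.76 and 3.20, a difference of -0.07 ± 0.23. Gstm6l, a mu class gene, had the largest difference above 0 of all members, 0.38 ± 0.23, from -3.27, -2.97, -2.59 and -2.16 against -2.51, -2.51, -2.08 and -2.38. Its groups overlapped through control replicate 4, and the adjusted p was 0.632 in limma's test. The difference came to 0.25 with normexp background correction and, with 1 array left out, ran from 0.21, without control replicate 1, to 0.57, without control replicate 4. Of the membrane-bound enzymes, Mgst1 and Mgst2 lay below 0, at -0.07 and -0.04, and above 0 without control replicate 4. Mgst3 gave 2.53, 2.59, 2.38 and 2.27 against 2.59, 2.52, 2.56 and 2.53, a difference of 0.11 ± 0.07 with the TCDD dams inside the upper part of the control range. Probes of close paralogs may bind each other's transcripts, which was not tested.

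The metallothioneins are small cysteine-rich proteins that hold zinc and copper. All 3 lay below 0 under every scaling and every fit that left out 1 array, and none separated the groups. Mt1a, now Mt1 in RefSeq, gave 1.92, 2.20, 2.59 and 2.57 in controls and 2.14, 2.83, 1.86 and 1.61 in TCDD dams. Mt2A gave 2.11, 2.31, 2.49 and 2.93 against 2.08, 2.92, 1.82 and 1.63. In both genes TCDD replicates 3 and 4 were the lowest of all 8. TCDD replicate 2 was the highest of all 8 for Mt1a and just below control replicate 4 for Mt2A. The differences were -0.21 ± 0.27 for Mt1a and -0.35 ± 0.29 for Mt2A, the largest difference below 0 of all members, and a second Mt2A probe also gave -0.35. Single dams moved them either way. Without TCDD replicate 2 they came to -0.45 for Mt1a and -0.61 for Mt2A, without TCDD replicate 4 to -0.04 and -0.19, and without control replicate 4 to -0.12 and -0.19. Mt1a was also at -0.12 without control replicate 3 and without TCDD replicate 3. No setting passed the threshold, with adjusted p of 0.469 or more for Mt1a and 0.339 or more for Mt2A under any setting tried.

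Mt3, the metallothionein enriched in brain and first described as an inhibitor of neurite growth, varied less. It gave 5.80, 5.79, 5.69 and 5.64 in controls and 5.52, 5.65, 5.69 and 5.40 in TCDD dams. TCDD replicates 1 and 4 were below every control and the other pair lay among the lower controls. The difference was -0.16 ± 0.08 (limma, unadjusted p = 0.0651, adjusted p = 0.501), and -0.11 without TCDD replicate 4.

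The 3 metallothionein genes lie next to each other on chromosome 19, and their promoters are shown because these genes are the standard targets of the metal response element. Its core, TGCACNC or TGCGCNC, was searched on both strands and is in capitals; a match can overlap the AhR core. Within the 250 bases before the RefSeq start, Mt1a had 6 matches, Mt2A 4 and Mt3 3. At least 3 matches occurred in 4 of 53 member windows, 7.55%, and in 1.81% of all 27457 windows. All 3 are on the reverse strand of build GRCr8, from RefSeq, at chr19:10832976-10833225 for Mt1a, chr19:10838709-10838958 for Mt2A and chr19:10856081-10856330 for Mt3.
Mt1a promoter: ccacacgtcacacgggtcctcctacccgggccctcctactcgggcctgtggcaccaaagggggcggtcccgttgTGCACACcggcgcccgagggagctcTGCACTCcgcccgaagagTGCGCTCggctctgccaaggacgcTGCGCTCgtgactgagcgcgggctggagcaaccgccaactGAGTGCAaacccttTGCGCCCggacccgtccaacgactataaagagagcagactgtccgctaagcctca
Mt2A promoter: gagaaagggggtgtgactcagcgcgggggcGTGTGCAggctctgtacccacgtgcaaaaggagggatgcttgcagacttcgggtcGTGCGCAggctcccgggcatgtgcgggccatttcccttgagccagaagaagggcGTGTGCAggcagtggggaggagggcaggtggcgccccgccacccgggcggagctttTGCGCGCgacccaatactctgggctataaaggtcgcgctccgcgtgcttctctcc
Mt3 promoter: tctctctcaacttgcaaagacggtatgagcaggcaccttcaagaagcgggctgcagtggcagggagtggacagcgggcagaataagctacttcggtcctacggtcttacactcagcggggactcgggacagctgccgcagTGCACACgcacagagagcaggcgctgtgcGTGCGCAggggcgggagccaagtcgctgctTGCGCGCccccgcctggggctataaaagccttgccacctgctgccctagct

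The members differed widely in how much they varied between dams of the same group. The SD within a group ran from 0.04 to 0.87 across the 55 members. It was under 0.1 in 38.2% of members, the same share as the 38.2% of all genes. At the other end, 10 members, 18.2%, exceeded 0.32, the value that the upper 10% of all genes exceed. They were Gpx2, Gstm2, Mt2A, Mt1a, Gstm4, Gsta4, Gsta3, Gsta5, Gstm6l and Mgst2.

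Gpx2, a glutathione peroxidase best known from gut epithelium, had the widest spread: -2.74, -1.74, -1.77 and -0.95 in controls and -1.79, -0.22, -2.17 and -2.43 in TCDD dams. Its highest and lowest dams were 5.75-fold apart, yet the group difference was 0.15 ± 0.53, with a second probe at 0.16. Gstm2 spanned 3.99-fold, with TCDD replicate 2 far above the other TCDD dams. In both genes TCDD replicate 2 was the highest dam, control replicate 4 the next and control replicate 1 the lowest.

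The same dams stood out in marker genes of tissue that adjoins the hypothalamus. The mean of the 10 tested meningeal markers of 10 was 0.07 in TCDD replicate 2 and -2.89 to -2.55 in the other TCDD dams. In controls it was -2.55 in replicate 1 and -1.30 to -1.04 in the rest. As group means, the meningeal list was -0.49 in TCDD dams relative to controls, with 10 of 10 genes lower. The mean of the 5 tested choroid plexus markers of 10 was also highest in TCDD replicate 2, at -1.80, beside -2.57 to -2.27 in the other dams. Among these markers the SD within the TCDD group was 1.32 for Ttr and 0.09 to 0.27 for Folr1, Kcne2, Otx2 and Sostdc1. Gpx2, Gstm2, Gstm4, Mgst2 and Mt1a were all highest in TCDD replicate 2.

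The mean of the 5 tested pituitary markers of 10 was 0.25 in control replicate 4, 0.41 in TCDD replicate 2 and 0.09 in TCDD replicate 4, and -1.46 or less in the other 5 dams. The hormone genes Prl, Gh1 and Fshb of that list did not meet the background criterion and were not tested. Gsta3, Gsta4, Gsta5 and Mt2A were all highest in control replicate 4. For Gsta4 and Mt2A, TCDD replicate 2 came next. In TCDD replicate 4, however, Gsta4 stood at -0.15 and Mt2A at -0.65 relative to the mean of all 8 dams. For Gsta3 and Gsta5 (now named Gsta3 in RefSeq), TCDD replicates 2 and 4 came next, the dams with high pituitary markers. The pituitary list was 0.81 higher in TCDD dams as a group mean. The same dams were also high in red cell markers: relative to the mean of all 8 dams, the 5 tested genes stood at 0.71 in control replicate 4 and -0.96 to -0.76 in the other controls, at 0.99 in TCDD replicate 2 and at 0.66 in TCDD replicate 4. TCDD replicates 1 and 3 were at -0.09 and 0.39, and the group difference was 0.98. What part such tissue or blood had in these genes was not tested. The means of the 8 other marker lists, for the hypothalamus, astrocytes, oligodendrocytes, microglia, endothelium, neurons, choroid plexus and ependyma, differed between groups by -0.05 to 0.10.

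**Figure D3:**
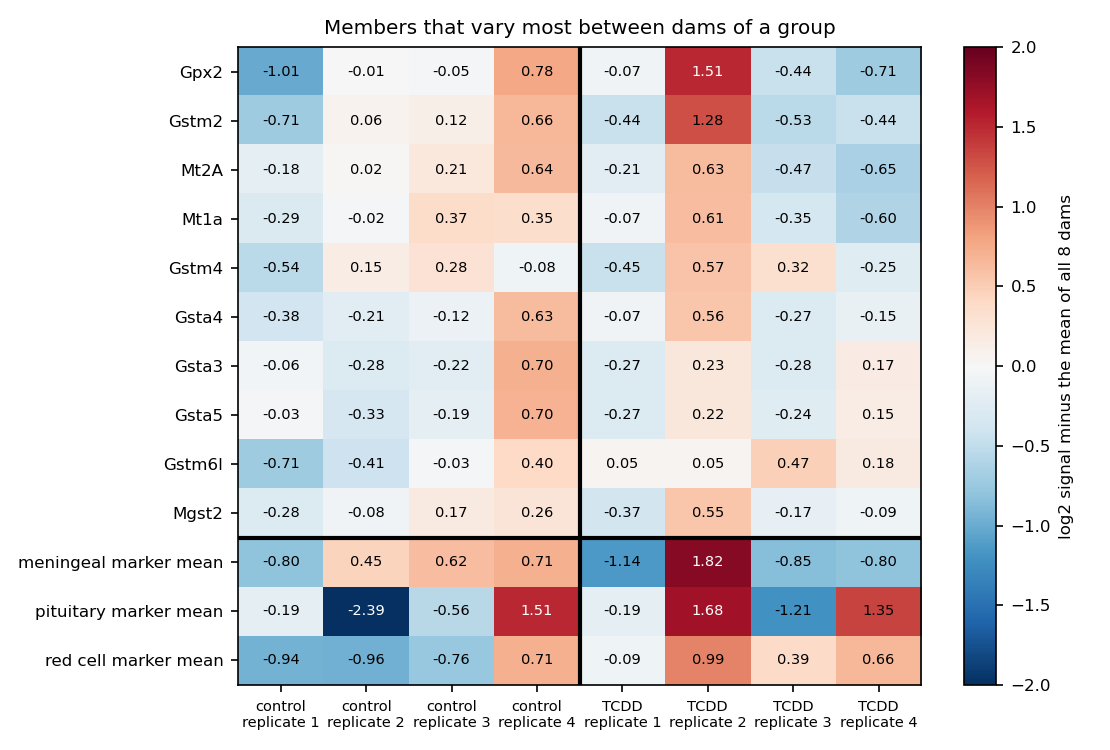
Log2 signal minus the mean of all 8 dams for the 10 members with the largest spread within groups, and below the line the means of the meningeal, pituitary and red cell marker lists. Columns are dams, controls left of the vertical line and TCDD right of it. Gpx2 and Gstm2 reach 1.51 and 1.28 in TCDD replicate 2, where the meningeal mean is 1.82, and Gsta3 and Gsta5 reach 0.70 in control replicate 4, where the pituitary mean is 1.51.

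Some probes were spotted 10 times per array, which gives the noise between spots on an array but not that of labelling or hybridisation. A dam's value is the mean of those spots, and its SE from spot noise was 0.01 for Gsta3, 0.02 for Mt2A and 0.02 for Hmox1. Between dams of a group the SD was 0.38 for Gsta3, 0.47 for Mt2A and 0.22 for Hmox1. For Gsr the SE was 0.03 and the SD between dams 0.06, and for Txn1 they were 0.02 and 0.05. The second Gpx2 probe had the same 3 lowest and the same 2 highest dams as the first, with -3.92, -3.33, -3.27 and -2.35 in controls and -3.02, -1.79, -3.57 and -3.85 in TCDD dams, whereas the second Txnrd1 probe, at -4.54, -4.39, -4.37 and -4.07 against -4.26, -4.31, -4.53 and -4.00, did not follow its partner in every dam.

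Across all 55 members, extreme values were not spread evenly over the dams. TCDD replicate 4 was the lowest dam for 14 members, 25.5%, against 8.56% of all genes. The highest dam was control replicate 4 for 12 members, 21.8%, against 12.3% of all genes. It was TCDD replicate 2 for 11 members, 20.0%, against 13.1% of all genes. TCDD replicates 3 and 4 were the highest for 2 members each, 3.64%, against 15.3% and 15.1% of all genes. In TCDD replicate 4, 41 of 55 members lay below their mean over the 8 dams, in TCDD replicates 1 and 3 35 each, and in TCDD replicate 2 23, the same count as in control replicates 3 and 4. The median deviation from that mean in TCDD replicates 1 to 4 was -0.04, 0.04, -0.03 and -0.05 for members. For all genes it was -0.01, -0.01, 0.03 and 0.02.

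Other genes of the same pathways gave 0 genes past the adjusted threshold of limma's test in any of 5 lists, whose median differences lay between -0.02 and 0.01. Of 17 tested NRF2 targets outside the members, 10 were below 0 and 7 above, with a median of -0.02; only Taldo1, of the pentose phosphate pathway, had an unadjusted p under 0.05, at 0.14. Of 15 genes of glutathione supply and turnover, 8 were below and 7 above, and only Chac2, which degrades glutathione, reached that level, at 0.27 ± 0.06 (limma, adjusted p = 0.163). Of 15 selenoprotein and selenocysteine synthesis genes, 7 were below and 8 above, with Selt at 0.23.

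Of 17 metal handling genes 8 were below and 9 above. There the copper transporters Slc31a1, at 0.44 ± 0.14, and Atp7b, at 0.37 ± 0.12, had an unadjusted p under 0.05 (limma, adjusted p = 0.294 and 0.309). Both had low signal, with control means of -5.70 and -4.83. Other copper genes of the list did not share the rise: Atp7a was at 0.03 ± 0.12, Atox1 at -0.07, Ccs at -0.04 and Cox17 at -0.08. Over all genes tested, 7.95% were higher and 2.82% lower at that level. Of 14 oxidant-producing enzymes 7 were below and 7 above, with Xdh, xanthine dehydrogenase, at -0.16.

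The 6 members with an unadjusted p under 0.05 or separate groups were also set beside the probes that lie within 500 kb of theirs on rn4, a look taken after their values were seen. Near Keap1, 0 of 29 tested probes had an unadjusted p under 0.05, and near Cat, Gclc and Gpx8 0 of 6 each. On the whole array 10.5% of the 19102 tested probes had an unadjusted p under 0.05, and 6.85% had separate groups. Near Gsto1, 3 of 8 had such a p and separate groups, all higher in TCDD dams. The probe for Wdr96, the gene next to Gsto1 in RefSeq order and now named Cfap43, was at 2.74 ± 0.22 (limma over all probes, adjusted p = 0.0257), from -3.93, -4.42, -4.64 and -4.31 in controls to -2.19, -1.40, -1.25 and -1.50 in TCDD dams. A second Wdr96 probe lay at 0.04 ± 0.08, so the probes of that gene disagree. The other pair were probes without a gene name, A_64_P151141 at 0.78 and A_64_P094771 at 0.13.

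Near Prdx1, 5 of 27 probes had an unadjusted p under 0.05, and their groups were separate. Mmachc, a vitamin B12 enzyme gene next to Prdx1 in RefSeq order, was at -0.28 ± 0.07, from -2.32, -2.43, -2.51 and -2.39 in controls to -2.58, -2.76, -2.62 and -2.83 in TCDD dams (limma over all probes, adjusted p = 0.223). A probe for Nasp, with a control mean of -5.13, lay at -0.35. A second Nasp probe, with a control mean of -0.85, lay at -0.03 ± 0.06, so the Nasp probes differ. Probes for Mutyh, TC611495 and LOC689103 lay above 0, at 0.22, 0.16 and 0.28. Akr1a1, on the other side of Prdx1 in that order, was at -0.01 ± 0.05. Thus the genes on either side of Prdx1 gave different values, 1 lower like Prdx1 and 1 near 0.

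**Figure D4:**
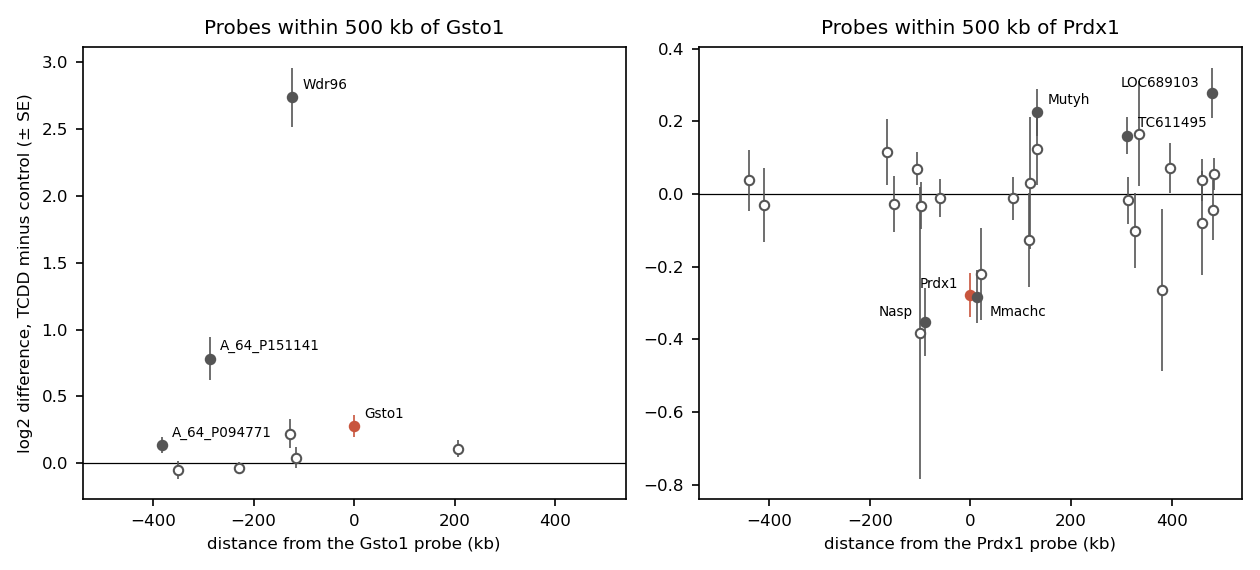
Log2 difference ± SE (y axis) of each tested probe within 500 kb of the Gsto1 probe (left) and of the Prdx1 probe (right) against its distance in kb on rn4; the member is in red and filled points have groups that do not overlap. At Gsto1 a Wdr96 probe stands at 2.74, and at Prdx1 the nearest filled probe, Mmachc, lies at -0.28 beside Prdx1 at -0.28.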

How the data were processed

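RNA from the hypothalamus of 8 dams was measured, 4 in each group. Per the file headers, the deposited scanner files hold linear spot intensity from Agilent Feature Extraction, version 10.7.1.1, with a processed signal that is already background-subtracted. A second deposited file is a table of intensity values by the authors, of median 65.1 on every array. It correlated with the scanner values at 0.999 or more across probes and served as an alternative. How it was scaled is not given. No per-sample column was left unused (0).

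From these, log2 of the processed signal minus each array's 75th percentile over 42877 spots was taken, without the 1377 control spots and without outlier-flagged spots, and spots of a probe were averaged. A probe was tested if well above background (at least 0.5 of its spots) on all 4 arrays of a group. Each gene name took its probe of highest mean signal. limma 3.58.1 in R 4.3.3 (lmFit and eBayes, group only) was fitted over all genes, checked first on simulated data. Nothing says whether dams shared litters or handling, so p-values measure the spread between these samples, whose number limits precision. No pair of arrays held identical values (0 of 28).

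Members and lists were chosen with earlier results of these data known. Values are given in full for members with an unadjusted p under 0.05 or separate groups, for 22 set names, for the brightest gene of each transferase class, and for the 3 largest differences in each direction; neighbours, motifs and dam-to-dam spread were chosen after values were seen. Symbols were matched to the RefSeq table of GRCr8 for 62 of 62 members, 60 by accession; 4 names have changed. Probe coordinates are rn4, per the file's design columns, and without an annotation of rn4, exons and UTRs were not assigned. Figures were drawn with matplotlib 3.10.9 in Python 3.11.15.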

Additional observations from a re-analysis of the deposited data

Results flagged for a closer look

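In 5 of 110 groups (the control and the TCDD dams of each of 55 members), 1 dam stood apart from the other 3 of its group, by its gap to the nearest dam divided by the group's whole range; the ratio passed Dixon's 95% critical value for 4 samples. That is 4.55% of these groups, beside 6.59% of the 33148 groups of all genes tested, and chance alone would give such a gap in about 1 in 20. For Gstm2 it was TCDD replicate 2, the highest, with a ratio of 0.948 (log2 signal -1.49, next -3.21). TCDD replicate 2 was also the highest for Gstz1, with a ratio of 0.868 (next dam 1.41). For Mgst1 it was control replicate 4, the highest, with a ratio of 0.89 (0.51, next -0.01). TCDD replicate 4 was the lowest for Prdx4, with a ratio of 0.852 (-0.65, next -0.55). Control replicate 1 was the lowest for Sod3, with a ratio of 0.855 (0.21, next 0.46).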

How the results depend on the processing

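Under 19 alternatives, 2 of them chosen after seeing the data (the percentile taken over probes, and the median of named probes as the scale), no member gene, no member probe and no gene of the companion lists passed the adjusted threshold. Among all genes 0 to 91 passed, the most with array weights; unadjusted, 468 genes were lower and 1317 higher in the main setting. The smallest adjusted p of Prdx1 was 0.0844 and its largest 0.388, and its difference stayed between -0.30 and -0.24. The count of members lower at an unadjusted p under 0.05, 3 in the main setting, was 6 after quantile normalization and 7 in the authors' table. It was 6 with a trended and robust variance, 7 with the percentile over probes, and 1 to 5 with an array left out. Over all genes the lower count in the same settings, in that order, was 738, 737, 440, 616, and 317 to 538. The count of higher members, 1, was 3 with array weights and 1 to 3 with an array left out. Over all genes the higher count was 1702 with array weights and 978 to 1484 with an array left out. The median difference, -0.04, was -0.0706 after quantile normalization, -0.0706 in the authors' table and -0.0793 to -0.0117 with an array left out. The cause was not tested. The probe fit has no value for the mean of probes.

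Of 32 named genes, 23 kept their sign throughout, and in 29 of 608 fits of these genes it turned. Gstk1 turned to -0.0092 with normexp, -0.0145 after quantile normalization, -0.0145 in the authors' table, -0.0225 with array weights and -0.0042 with the percentile over probes. With array weights, Gpx2 turned to -0.095, Gsta3 to 0.035 and Txnrd1 to 0.0069; Txnrd1 was 0.019 as the mean of its probes, and Glrx1 was -0.00057 with the percentile over probes. With an array left out, the ranges of the genes that turned were -0.33 to 0.43 for Gpx2, -0.042 to 0.061 for Gstz1, -0.12 to 0.058 for Gpx1, -0.050 to 0.0089 for Gss, -0.017 to 0.047 for Glrx1, -0.18 to 0.15 for Gsta3, -0.13 to 0.048 for Txnrd1, -0.045 to 0.059 for Gstk1 and -0.0081 to 0.10 for Nfe2l2.

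Same-numbered dams of the 2 groups deviated together at correlations of 0.228, -0.0031, -0.045 and 0.103 for replicates 1 to 4. Only for replicate 1 was the same-numbered dam the best match. Such correlations cannot show whether the design paired the dams by number. With the replicate number as a block, 0 of all genes and 0 members passed, and the median difference was -0.04; Prdx1 had an adjusted p of 0.14. For genes near background (Gclm, Gpx5, Gpx6, Gsta2, Gstm3, Gsto2 and Gstt4), signal limits what can be said.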
